A study of Mus musculus with 6 samples.

Results

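The genes described here are named as protein subunits of the mitochondrial ribosome. They were chosen by symbol: every row of the deposited count table whose Ensembl identifier is a protein-coding gene named Mrpl or Mrps followed by a number. This gave 78 of the 16289 genes in the table, 49 with a large-subunit symbol (Mrpl) and 29 with a small-subunit symbol (Mrps). A further 2 matching symbols are annotated as pseudogenes and were left out. The measurements are RNA-seq read counts from the tibialis anterior, a fast muscle at the front of the shin, of 6 wild-type male C57BL/6J mice aged 12 weeks. All 6 muscles had been injected with glycerol, which kills muscle fibres and sets off regeneration with some fat deposition, and were taken on day 14. The groups are glycerol with a control treatment (3 mice) and glycerol with melatonin (3 mice, written glycerol+melatonin). There was no uninjured group, and the sources used here do not give the dose or route of melatonin.

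Mitochondria carry their own ribosome, which makes only the few respiratory chain proteins that mitochondrial DNA encodes. Its RNAs come from mitochondrial DNA, while every one of its proteins is encoded in the nucleus, made in the cytosol and imported. The small subunit holds the messenger RNA and decodes it, and the large subunit joins the amino acids and anchors the ribosome to the inner membrane. Many of its proteins descend from bacterial ribosomal proteins; the others were added in the mitochondrial lineage. In muscle the respiratory chain that depends on it supplies most of the energy for sustained work.

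Library totals ran from 39310361 to 48879045 counts. The 9 fast-fibre markers (such as Myh4, Ckm and Acta1) summed to between 103890 and 178540 counts scaled to a common library total (CPM) in each library, against 129 to 293 CPM for the 6 slow-fibre markers, as in fast skeletal muscle. The submitters' extraction text names the longissimus dorsi, a back muscle, and these markers do not tell the muscles apart. All tissue was whole muscle, in which fewer cells of a type and less RNA per cell cannot be told apart.

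All 78 genes passed the filter on low counts, with 214 to 10695 counts per gene and library. They lie on 17 chromosomes, 11 of them on chromosome 11. Mean levels ran from 8.02 CPM for Mrpl53 to 209 CPM for Mrpl42, with a median of 35.4 CPM against 10.9 CPM over all genes tested. Of the 790 exon bases of Mrpl53, 695 are shared on the same strand with the more abundant protein-coding gene Gm42688. The sources used here do not say how reads in shared bases were assigned. The part of this overlap in the low level of Mrpl53 was not tested. To compare genes with each other, CPM was divided by the length in kilobases of the longest annotated transcript. On this scale the median was 23.4 CPM per kilobase, against 3.997 for all protein-coding genes tested.

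The most abundant transcript per kilobase was that of Mrpl12, a large-subunit protein that also binds the mitochondrial RNA polymerase. It stood at 135, 115 and 156 CPM per kilobase in the glycerol mice and 166, 130 and 117 in the glycerol+melatonin mice. Mrpl54 followed at 79.2, 83.6 and 82.4 against 124, 98.1 and 119 CPM per kilobase. The next were Mrps36, at a mean of 84.0 CPM per kilobase, and Mrps21, at 79.1. Mrps36 was given no place in either ribosomal subunit here and is a subunit of the 2-oxoglutarate dehydrogenase complex of the citric acid cycle. Mrps21 descends from a bacterial small-subunit protein. In this order each gene's range over the 6 mice overlapped that of the next, so the spread between mice does not separate neighbours.

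At the other end lay Mrpl19 (3.01 to 4.23 CPM per kilobase over the 6 mice), Mrps17 (4.28 to 5.57), Mrpl32 (4.48 to 6.42) and Mrpl17 (5.003 to 6.53). Mrpl32 is the subunit whose precursor must be cut by the m-AAA protease before it can join the ribosome. The highest mean was 35.3 times the lowest, although the ribosome is thought to hold its subunits in fixed proportion. The order depends on which transcript gives the length. With the longest protein-coding transcript instead, the spread was 81.1-fold, Mrpl42 moved from rank 5 to rank 1 (63.7 to 313 CPM per kilobase) and Mrpl33 from rank 41 to rank 3 (22.8 to 131).

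**Figure D1:**
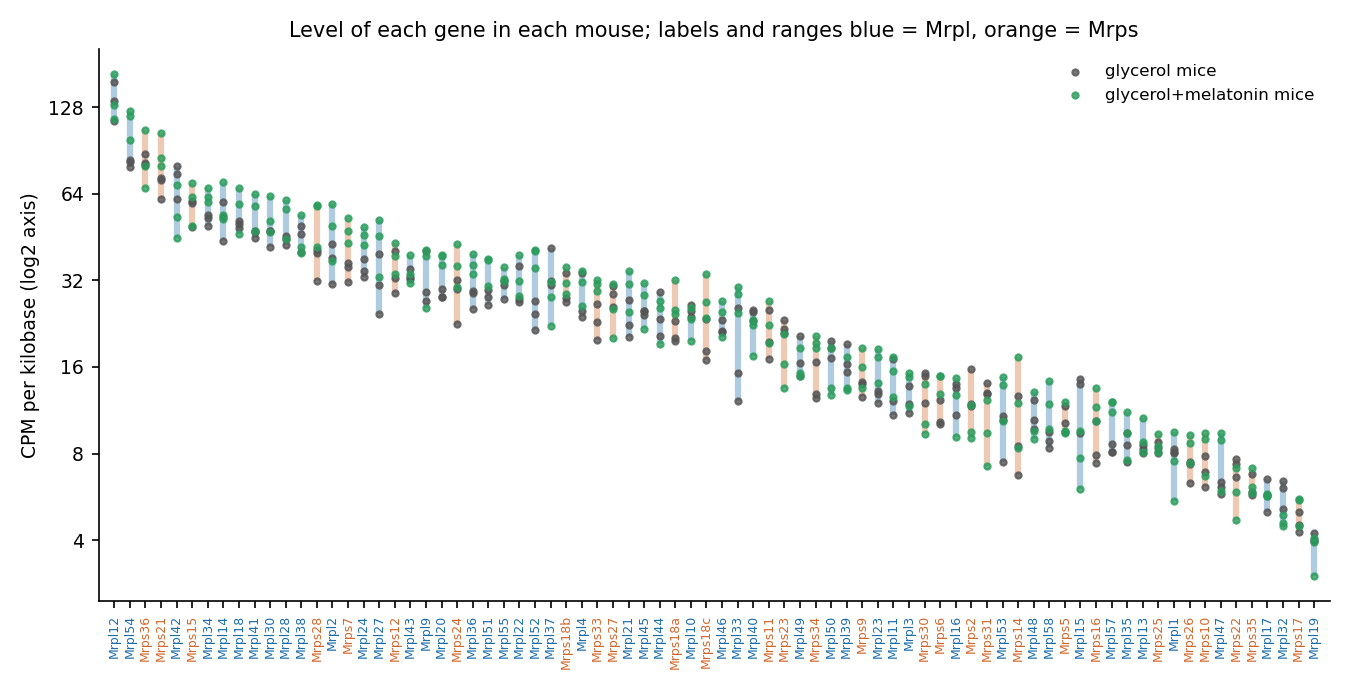
Level of each of the 78 genes in each mouse, in CPM per kilobase of the longest annotated transcript on a log2 axis, ordered by mean. Grey points are glycerol mice and green points glycerol+melatonin mice; blue names are Mrpl and orange names Mrps genes. Levels fall gradually from Mrpl12 to Mrpl19, and both subunits are spread along the whole order.

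Large- and small-subunit genes overlapped in level and in length. The median was 26.0 CPM per kilobase for the 49 Mrpl genes and 16.8 for the 29 Mrps genes, and median transcript lengths were 1757 and 1962 bases. Median coding lengths were 576 and 588 bases. Summed per kilobase, large-subunit transcripts outnumbered small-subunit transcripts 2.15, 2.08 and 2.13 times in the glycerol mice and 2.04, 2.06 and 2.13 times in the glycerol+melatonin mice. This ratio was thus nearly the same in each mouse, and the groups overlapped. Symbols are an imperfect guide to place: Mrps30 and Mrps18a sit in the large subunit. Sorted by place, with Mrps36 (given no place) left out, the ratio was 2.72, 2.60 and 2.65 against 2.546, 2.498 and 2.583. The 3 glycerol+melatonin mice thus lay just below the 3 glycerol mice.

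With melatonin, none of the 78 genes passed edgeR's quasi-likelihood test at a Benjamini-Hochberg adjusted p under 0.05 over all 16259 genes tested. The background was low too: 12 genes, or 0.0738%, passed. The direction was uneven. Of the 78 genes, 55 (70.5%) had a log2 fold change above 0, meaning higher in glycerol+melatonin, where 51.7% of all genes tested and 49.3% of protein-coding genes did. The median was 0.16, against 0.02 over all genes tested, and the range ran from -0.70 (Mrpl15) to 0.68 (Mrpl52). These are small changes, and the median standard error of a single gene was 0.17. Scaled by library size alone, 66 genes lay above 0 with a median of 0.36, but so did 70.6% of all genes tested, with a median of 0.23.

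At an unadjusted p under 0.05, 18 genes were higher and 2 lower, against backgrounds of 10.1% higher and 9.39% lower over all genes tested. In all these 20 genes are 25.6% of the set, where 19.5% of all genes tested reached that level. The 3 mice of one group all lay above the 3 of the other for 22 genes (28.2%), close to the background of 26%. Of these 22, 19 were higher with melatonin (background 13.6%) and 3 lower (background 12.5%). DESeq2 called 1 of the 78 genes, Mrpl52, where it called 4.62% of all genes (5.01% of those given an adjusted p), and limma-voom called 0 (background 0.0738%). Without glycerol replicate 1, 5 of the 78 reached an unadjusted p under 0.05 (background 11.9%), and without glycerol replicate 2, 6 did (background 10.4%). Without glycerol+melatonin replicate 2 there were 12 (background 14.4%). The share over all genes tested thus fell in these 3 fits as well, but that of the set fell further. The set lay below the background without glycerol replicate 1 or 2, and near it without glycerol+melatonin replicate 2.

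**Figure D2:**
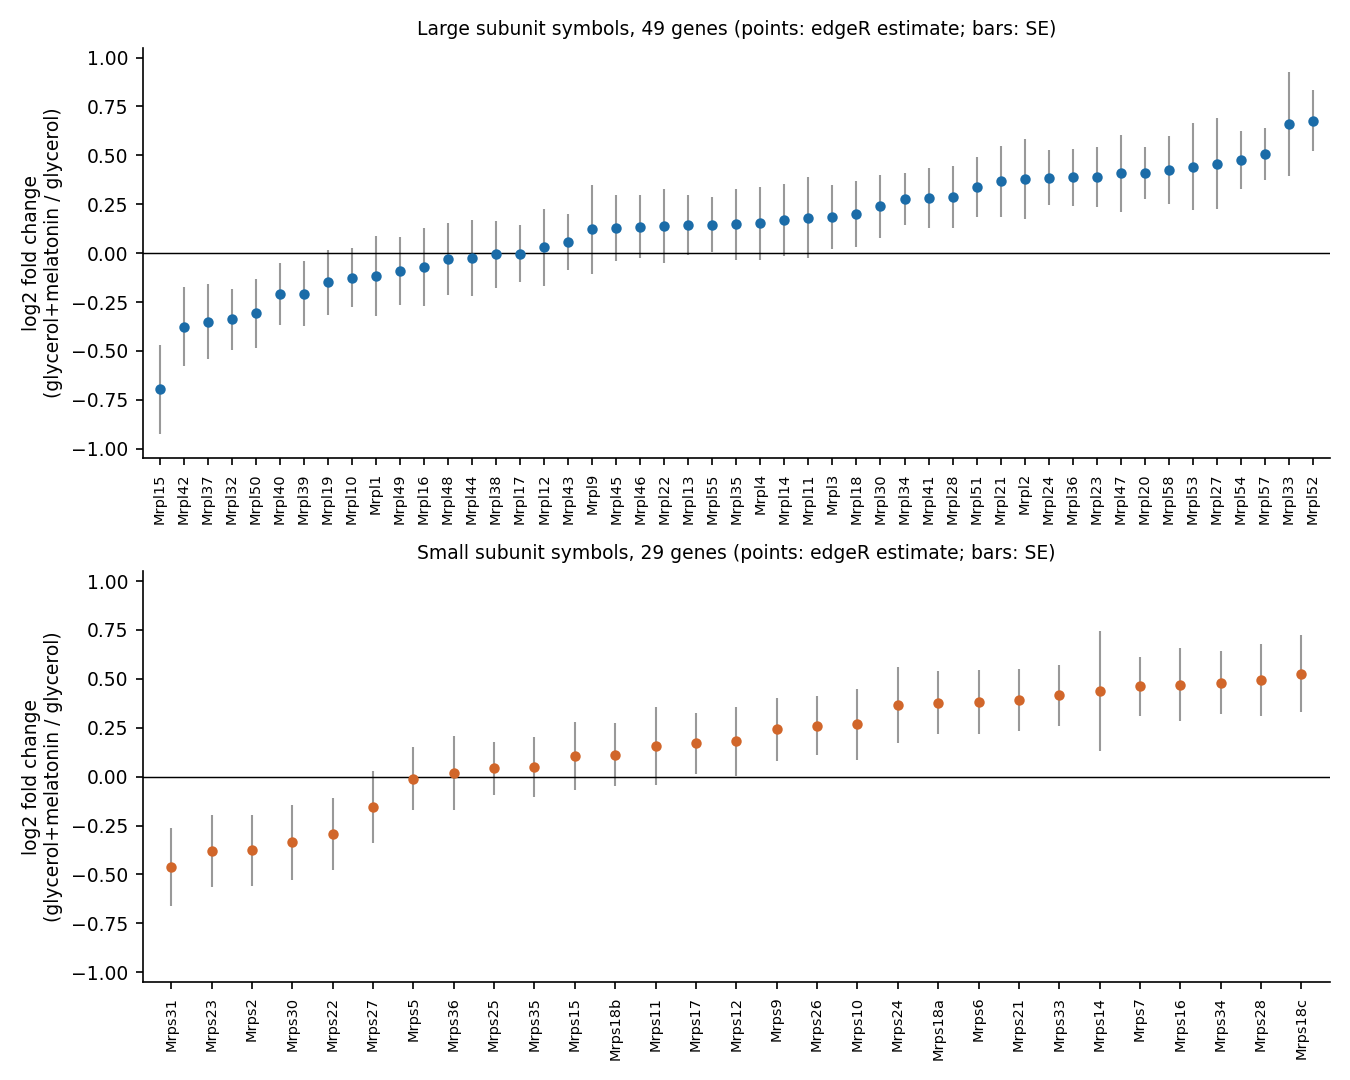
Log2 fold change (glycerol+melatonin over glycerol) of each gene by edgeR, ordered within the large (top) and small (bottom) subunit symbols; bars are standard errors. Values run from -0.70 to 0.68, and in both panels more points lie above 0 than below it.

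The medians of the subunits lay close together before any correction for length. Of 49 Mrpl genes, 33 lay above 0 with a median of 0.15, and of 29 Mrps genes, 22 lay above 0 with a median of 0.18. The difference of these medians was -0.03; it ran from -0.083 to -0.0063 with single mice left out, and was -0.10 with transcript length corrected and -0.16 with GC content corrected too. Per mouse, the mean of the log2 levels centred on each gene differed between Mrpl and Mrps genes by 0.03 or less in each of the 6 mice. Sorting by place in the ribosome gave medians of 0.15 (51 genes) and 0.21 (26 genes).

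The medians lay farther apart by descent than by subunit. The 47 proteins with a bacterial counterpart had a median of 0.20, with 38 above 0. For the 29 proteins found only in mitochondrial ribosomes the median was 0.04, with 15 above 0. Before any correction for length each subunit gave the same order, with 0.18 against 0.02 in the large and 0.27 against 0.04 in the small subunit. With transcript length corrected the medians of the 2 classes were 0.12 and -0.09. The order then held in the large subunit (0.11 against -0.10) but not in the small (0.16 against 0.17). Without that correction, leaving out each mouse in turn gave 0.11 to 0.32 for the proteins with a bacterial counterpart and -0.04 to 0.11 for the others. The difference was not tested.

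Mrpl52, a large-subunit protein specific to mitochondria, had the highest fold change and the smallest p. Its levels were 18.3, 20.8 and 23.3 CPM in the glycerol mice and 34.9, 30.2 and 34.7 CPM in the glycerol+melatonin mice. Each melatonin mouse lay above each control mouse. On GRCm38, Mrpl52 (ENSMUSG00000010406) lies on the plus strand of chromosome 14 from 54426909 to 54429756. The log2 fold change was 0.68 ± 0.16 (SE), with an edgeR adjusted p of 0.134 and a DESeq2 adjusted p of 0.0219. Mrpl57, another mitochondria-specific large-subunit protein, varied little within groups: 23.3, 23.3 and 24.8 CPM against 32.1, 34.6 and 34.7 CPM (0.51 ± 0.13, edgeR adjusted p = 0.148).

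Mrpl33, the counterpart of the small bacterial protein L33, differed by almost as much but unevenly. It stood at 33.5, 41.6 and 70.2 CPM in the glycerol mice and 78.8, 83.4 and 67.6 CPM in glycerol+melatonin. Glycerol replicate 3 lay inside the melatonin range, and the estimate was 0.66 ± 0.26 (edgeR adjusted p = 0.228). Mrpl54 was at 47.8, 50.5 and 49.8 CPM against 74.99, 59.2 and 72.0 CPM (0.48 ± 0.15). Mrpl20, counterpart of a bacterial protein needed early in large-subunit assembly, was at 24.1, 22.7 and 22.7 CPM against 31.4, 31.6 and 29.2 CPM (0.41 ± 0.14). Both were higher in each melatonin mouse than in any control mouse.

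Among small-subunit genes Mrps18c, Mrps28 and Mrps34 had the highest fold changes and Mrps7 the smallest p. Mrps18c was at 13.8, 14.9 and 19.2 CPM in the glycerol mice and 22.04, 27.5 and 19.4 CPM in glycerol+melatonin (0.53 ± 0.20). Mrps28 was at 24.8, 31.2 and 32.04 CPM against 45.4, 45.9 and 32.7 CPM (0.49 ± 0.19). For both, glycerol+melatonin replicate 3 lay just above the highest control mouse. Mrps34, a protein specific to mitochondria, was at 23.4, 24.4 and 31.3 CPM against 38.7, 36.4 and 35.1 CPM (0.48 ± 0.16). Mrps7, the counterpart of the bacterial protein S7 that starts assembly of the small-subunit head, was at 62.1, 69.7 and 72.0 CPM against 103, 92.8 and 84.4 CPM (0.46 ± 0.15). For these 4 genes the groups did not overlap, and edgeR adjusted p ran from 0.184 to 0.209.

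The lowest fold change was that of Mrpl15, counterpart of the bacterial large-subunit protein L15. Mrpl15 (ENSMUSG00000033845) lies on the minus strand of chromosome 1 from 4773206 to 4785739 on GRCm38. It stood at 64.04, 43.4 and 66.9 CPM in the glycerol mice and 44.2, 35.6 and 27.8 CPM in glycerol+melatonin. Glycerol replicate 2 lay just below the highest melatonin mouse, and the estimate was -0.70 ± 0.23 (edgeR adjusted p = 0.185). Mrps31 was lower without overlap, at 37.0, 34.1 and 33.8 CPM against 32.3, 24.8 and 19.04 CPM (-0.46 ± 0.20, edgeR adjusted p = 0.255). So was Mrps23, at 29.6, 30.4 and 32.6 CPM against 29.4, 22.9 and 18.9 CPM (-0.38 ± 0.18). In both, which are specific to mitochondria, glycerol+melatonin replicate 3 was the lowest mouse.

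Mrpl32, introduced above, was the third gene lower without overlap, at 18.3, 19.3 and 15.5 CPM against 14.7, 13.8 and 13.5 CPM (-0.34 ± 0.16). Mrps2, counterpart of bacterial S2, was at 39.4, 29.4 and 29.9 CPM against 29.5, 22.7 and 23.8 CPM (-0.38 ± 0.18). The mitochondria-specific Mrpl42 was at 261, 246 and 200 CPM against 224, 147 and 174 CPM (-0.38 ± 0.20). Mrpl37 was at 116, 86.3 and 89.4 CPM against 88.4, 78.5 and 62.1 CPM (-0.35 ± 0.19). In the last 3 genes the groups overlapped through glycerol+melatonin replicate 1. The edgeR adjusted p of the 4 genes in this paragraph lay between 0.276 and 0.343.

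**Figure D3:**
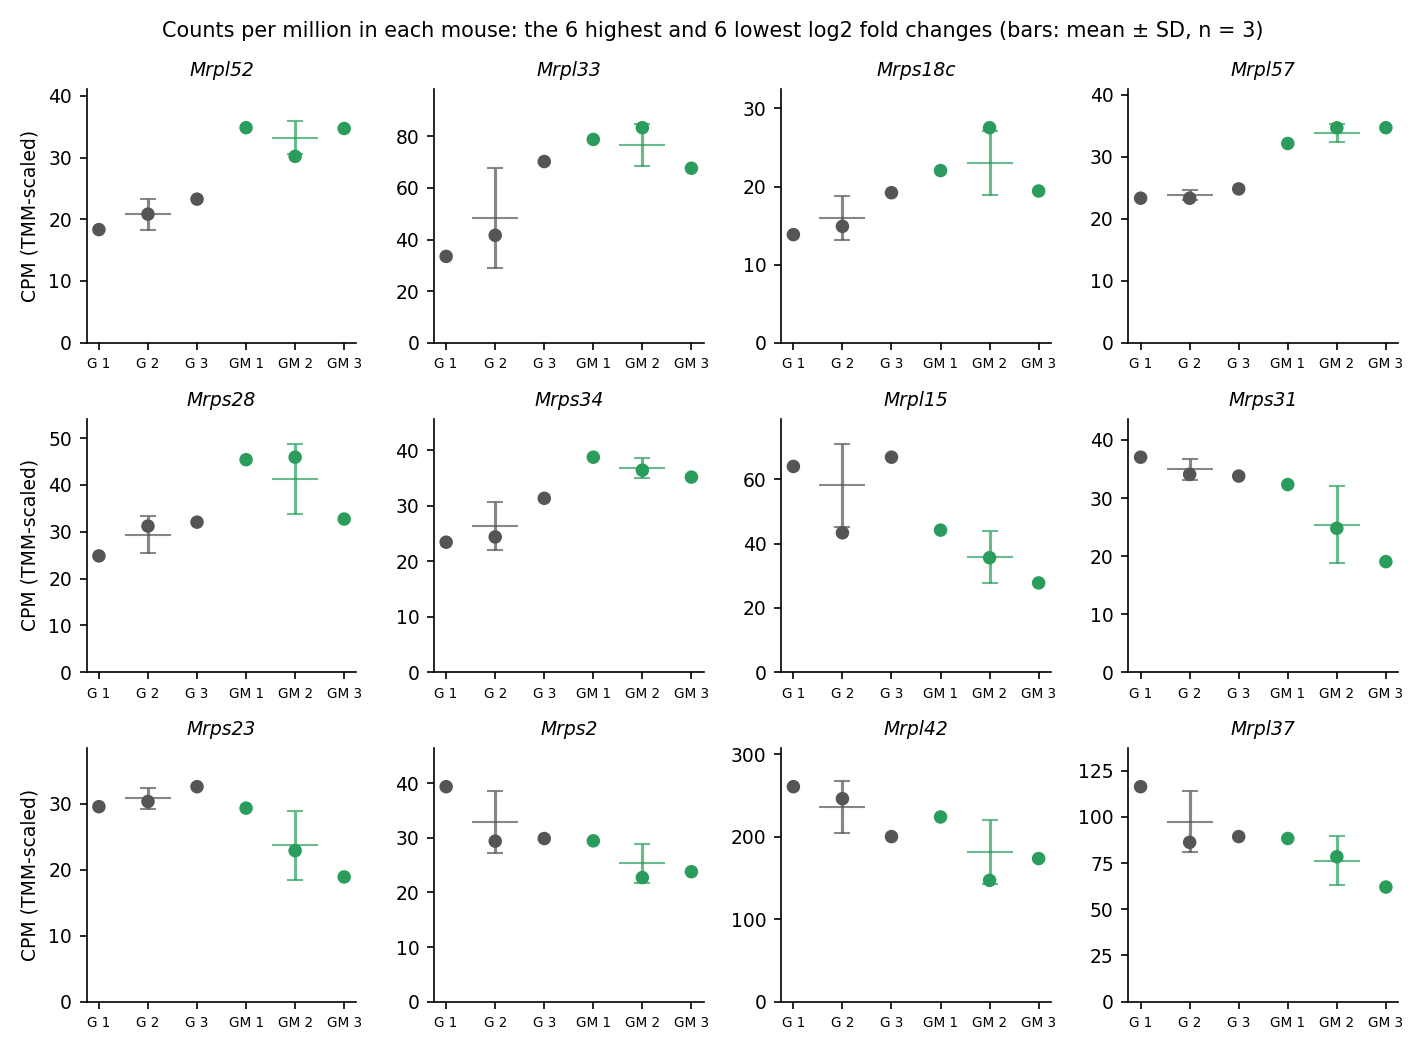
TMM-scaled CPM in each mouse for the 6 genes with the highest and the 6 with the lowest log2 fold change; G is glycerol, GM glycerol+melatonin, and bars are mean ± SD (n = 3). Mrpl52, Mrpl57 and Mrps34 show separated groups, while in Mrpl33 glycerol replicate 3 (70.2 CPM) reaches the melatonin mice.

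The 3 relatives of bacterial S18 differed in level and estimate. Mrps18a, placed in the large subunit, was at 44.9, 51.1 and 43.6 CPM against 71.0, 54.2 and 56.2 CPM (0.38 ± 0.16), with no overlap. Mrps18b was at 36.5, 29.9 and 29.1 CPM against 38.5, 31.0 and 33.7 CPM (0.11 ± 0.16), and turned to -0.13 after the correction for transcript length. Mrps18c, given above, was the least abundant of the 3 in CPM.

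Genes of the set with another role or an unusual place showed no common direction. Mrpl12 was at 177, 151 and 205 CPM against 219, 172 and 154 CPM, an estimate of 0.03 ± 0.19 whose sign turned with the length correction and when single mice were left out. Mrpl58, a peptidyl-tRNA hydrolase kept in the large subunit, was at 23.0, 21.7 and 24.7 CPM against 37.1, 30.8 and 25.3 CPM (0.43 ± 0.18). Mrps30, in the large subunit despite its symbol, was at 58.2, 45.5 and 56.7 CPM against 53.0, 38.6 and 35.4 CPM (-0.34 ± 0.19). Mrps36 was at 57.4, 56.7 and 61.4 CPM against 74.8, 56.1 and 47.0 CPM (0.02 ± 0.19, and -0.31 after the length correction). Mrpl23, which lies beside the imprinted genes H19 and Igf2, was at 47.7, 49.1 and 44.6 CPM against 68.5, 52.2 and 64.3 CPM (0.39 ± 0.15). Of these 5, the groups did not overlap for Mrpl58 and Mrpl23.

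Single mice shaped the set as a whole. The mean of the centred log2 levels of the 78 genes was -0.12, -0.10 and 0.02 in the glycerol mice and 0.25, 0.06 and -0.11 in the glycerol+melatonin mice. Glycerol+melatonin replicate 3 thus lay at the level of the lower control mice, and the groups overlapped. For 48 of the 78 genes the highest value was that of glycerol+melatonin replicate 1, as for 11.9% of all genes tested, and for 0 of them the lowest. This depended on the scaling: by library size alone it was highest for 16 genes and glycerol+melatonin replicate 2 for 31. Without glycerol+melatonin replicate 1, 49 of the 78 genes still lay above 0; without glycerol+melatonin replicate 3, 61 did.

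Other gene groups also differed between the mice, and not all in the same order. Nuclear subunits of oxidative phosphorylation (84 genes) had mean centred levels of -0.26, -0.18 and 0.03 in the control mice and 0.37, 0.18 and -0.13 in the melatonin mice, the same order of mice in the melatonin group. Cytosolic ribosomal proteins (80 genes) were at -0.53, -0.43 and 0.05 against 0.25, 0.30 and 0.35, the reverse order in the melatonin group. The fast-fibre markers were at 0.13, 0.27 and 0.03 against 0.16, -0.12 and -0.47, so glycerol+melatonin replicate 3 was the lowest mouse there. Summed neutrophil markers (2 of 4 measured) were 2.99 to 3.61 CPM in the glycerol mice and 4.18, 7.197 and 15.5 CPM in glycerol+melatonin, highest in that same replicate 3. Macrophage markers, all 6 with log2 fold changes below 0 (median -0.33), summed to 397, 419 and 575 CPM against 366, 530 and 336 CPM. Fibro-adipogenic progenitor markers had 2 of 7 above 0 and 3 lower at an unadjusted p under 0.05 (background 9.39% lower). They summed to 6771, 7334 and 7080 CPM against 4830, 5882 and 5345 CPM, lower in each melatonin mouse than in any control mouse. Markers of new fibres, all 5 above 0 (median 0.83), summed to 292, 161 and 203 CPM against 221, 304 and 309 CPM, with overlap. The part of fibre content, progenitors and infiltrating cells in the levels of the ribosomal genes was not tested.

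**Figure D4:**
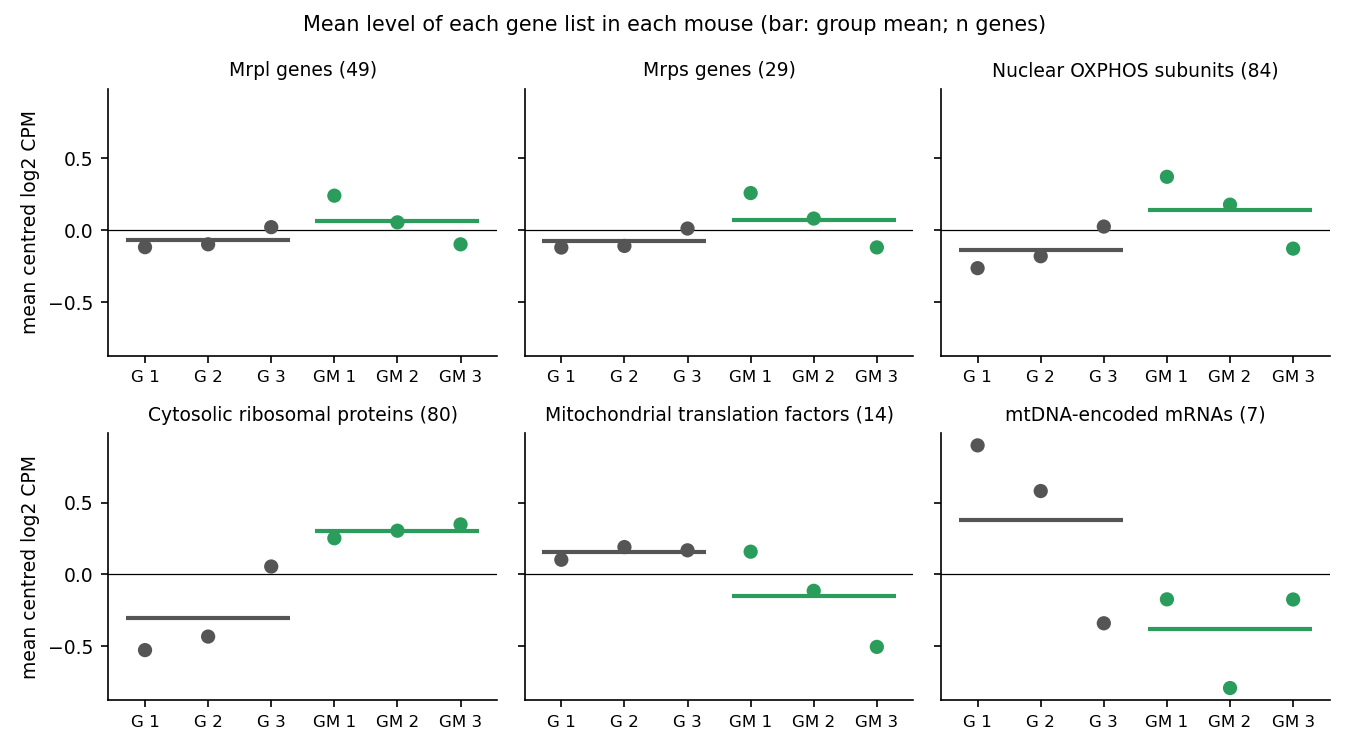
Mean centred log2 CPM of 6 gene lists in each mouse (G, glycerol; GM, glycerol+melatonin), with the number of genes in brackets and bars at the group means. Mrpl and Mrps genes follow one another closely, from -0.12 in glycerol replicate 1 to 0.24 and 0.26 in glycerol+melatonin replicate 1, and fall back to -0.10 and -0.12 in glycerol+melatonin replicate 3.

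Within the 78 genes, the group difference varied with length. Short coding sequences went with higher fold changes: Pearson's r of log2 fold change with log2 coding length was -0.53 (Spearman's rho -0.53) across the 78 genes, and -0.22 across 14026 protein-coding genes tested. With transcript length r was -0.37 for the set and -0.28 for protein-coding genes. These are descriptions across genes of the same 6 libraries, which are not independent points. Leaving out each mouse in turn gave r with coding length from -0.46 to -0.55.

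By 4 bins of coding length (quartiles of the set) the change was stepwise only at the ends. In the shortest bin (261 to 429 bases) 19 of 20 genes lay above 0 with a median of 0.39; the exception was Mrpl42. The middle bins had medians of 0.16 (14 of 19 above 0) and 0.26 (15 of 19). In the longest bin (849 to 1326 bases) 7 of 20 lay above 0 with a median of -0.07, and Mrpl15, Mrps31, Mrps2, Mrpl37 and Mrps30 were its 5 lowest. The sign of that last median depended on 1 mouse and on the scaling. Without glycerol+melatonin replicate 3 that median was 0.05, with 11 of 20 above 0. By library size alone it was 0.12, with 13 of 20 above 0, where the median over all genes tested was 0.23. The medians of the whole set were 0.27 and 0.36 in these fits, so the longest bin stayed below the set. In the shortest bin the groups did not overlap for 11 of 20 genes (55%, background 26%). All 11 were higher with melatonin (background 13.6%). With coding length corrected, as described below, that bin had a median of 0.12 with 14 of 20 above 0. There, 2 of the 20 had an unadjusted p under 0.05 by edgeR (background 18.1%).

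**Figure D5:**
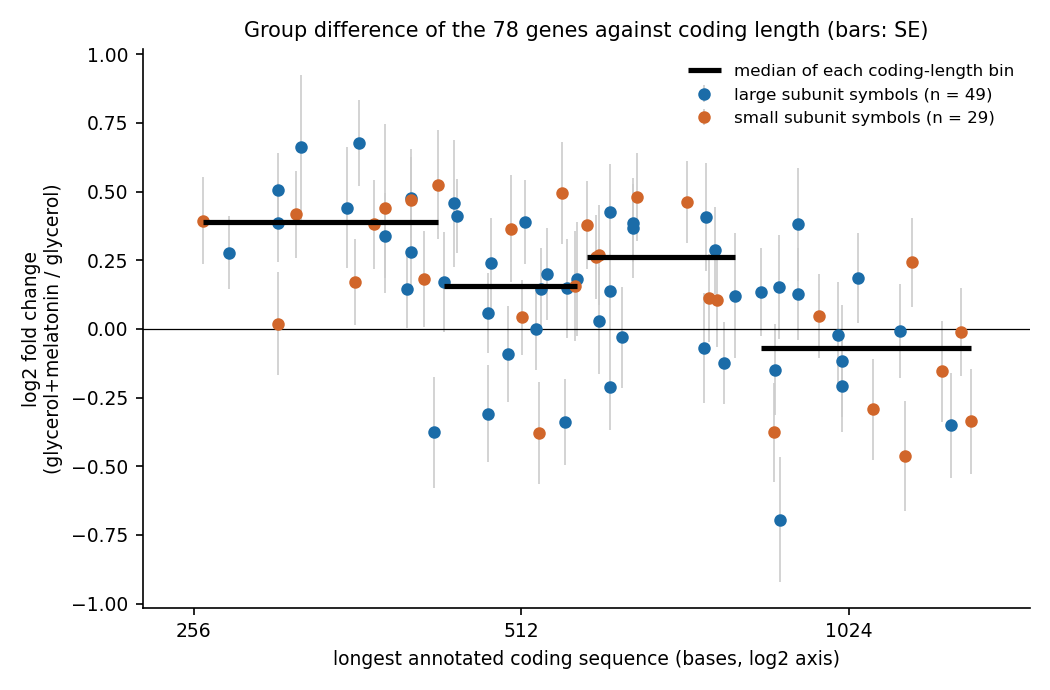
Log2 fold change of the 78 genes against the length of the longest annotated coding sequence (log2 axis); blue are Mrpl and orange Mrps genes, grey bars standard errors, black lines the median of each coding-length bin. Medians go from 0.39 in the shortest bin to -0.07 in the longest.

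The slope with length also differed between mice of one group. Regressing each library's centred log2 levels of the 78 genes on log2 coding length gave slopes of 0.25, 0.08 and 0.06 in the glycerol mice and -0.04, -0.15 and -0.20 in the glycerol+melatonin mice. Long members were relatively high in glycerol replicate 1 and low in glycerol+melatonin replicate 3. Across 12718 protein-coding genes with a mean log2 CPM above 0 the slopes on coding length were 0.10, 0.08 and -0.02 against -0.08, -0.06 and -0.02, so other genes showed a dependence on length as well, with opposite signs in glycerol replicates 1 and 2 and in glycerol+melatonin replicates 1 and 2.

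Corrections for length took away much of the shift. With an offset for transcript length fitted in each library, 0 of the 78 genes passed (background 0.0431%) and 42 of 78 genes lay above 0 (background 52.6%), the median was 0.09, and 11 genes were higher (background 9.07%) and 4 lower (background 7.89%) at an unadjusted p under 0.05, together 15 genes against a background of 17%. With an offset for coding length instead, 48 lay above 0 (54.7% of all genes tested), the median was 0.06, and 8 genes (10.3%) reached an unadjusted p under 0.05, fewer than the background of 18.1%. Single genes responded differently to the transcript length offset. Mrpl57 stayed at 0.51 and Mrpl33 at 0.66, Mrpl52 came to 0.40, and Mrpl54 came down from 0.48 to 0.11. Mrps21 (0.39, with no overlap) came to -0.02. On the low side Mrpl15 was at -0.58, Mrps31 at -0.48 and Mrps23 at -0.55. Across the set r with coding length was -0.33 after this offset and -0.19 after the offset for coding length. The order of single genes depended on the length used. With the offset for coding length Mrpl57 came to 0.20, Mrpl33 to 0.40, Mrpl52 to 0.43, Mrpl54 to 0.26 and Mrps21 to 0.04. Mrpl15 was then at -0.71, Mrps31 at -0.43 and Mrps23 at -0.52.

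GC content and level showed weaker relations. Across the 78 genes r of log2 fold change was 0.29 with the GC content of the longest transcript and -0.12 with level. The 20 genes richest in GC had 18 above 0 and a median of 0.33. Their median transcript length was 1095 bases, against 1866.5 for the set. With transcript length corrected 12 of the 20 lay above 0 (median 0.11), and r with GC content was -0.07 across the set. With coding length corrected 15 of the 20 lay above 0 (median 0.20), and r was 0.31.

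Many of these genes lie tightly against neighbours, so reads and promoters can be shared. Of the 78, 33 share exon bases with another annotated gene, 25 of them with a gene of the table, and the sources used here do not say whether counting used strand. Adding the counts of such partners moved 5 genes by more than their standard error, and 5 changed sign, Mrpl14, Mrps24 and Mrpl48 among them. The whole count of each partner was added, so an abundant partner can set the sign of the sum. For Mrpl14 the partner's mean level was 83.9 CPM against its own 35.9 CPM. The sums thus do not tell the direction of the member itself. Mrpl14 (0.17 ± 0.18; GRCm38 chromosome 17, 45686322 to 45698495) shares 106 bases with Tmem63b on the other strand and came to -0.28. Mrps24 (0.37 ± 0.19) shares 226 bases with Urgcp on its own strand and came to -0.02. Mrpl49 and Mrpl48 went from -0.09 to -0.31 and from -0.03 to 0.16. Mrpl47 (0.41 ± 0.20) came to 0.14. Mrps34 shares 1309 bases with Mapk8ip3 and 763 with Nme3, both above 0 themselves (0.53 and 0.79), and summed with them was at 0.51.

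Head-to-head neighbours were common: 26 of the 78 genes (33.3%) start within 1000 bases of an oppositely directed protein-coding gene, or overlap its start by up to 500 bases, where 13.2% of protein-coding genes tested do. The pair Mrps11 and Mrpl46 are each other's neighbour. Mrpl36 faces Ndufs6, a complex I subunit (0.39 and 0.50), Mrps12 faces the mitochondrial seryl-tRNA synthetase Sars2 (0.18 and 0.00), and Mrps34 faces Eme2 (0.48 and 0.42). Mrpl49 (-0.09) faces Fau, which encodes a cytosolic ribosomal protein and was at 0.88. Mrps18c (0.53) faces Helq at -0.09, and Mrpl32 (-0.34) faces the proteasome gene Psma2 at 0.22. Of 25 neighbours tested, 15 lay above 0. In 19 of the 25 pairs (76%) both genes lay on the same side of 0, and in 6 on opposite sides, with the pair of Mrps11 and Mrpl46 counted from each gene. Over all 1696 protein-coding genes with such a tested neighbour the share was 54.4%. Sides were counted by sign alone. Several neighbours lay well within their standard error of 0, such as Sars2 (0.00 ± 0.15) and Zfp189 beside Mrpl50 (-0.01 ± 0.20). Some of these neighbours also share exon bases, and the part of shared reads was not tested.

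The promoter sequences of 69 of the 78 genes were in the RefSeq table (GRCm38.p6; 250 bases before to 50 after the start, on the strand of the gene), and 29 of these held a core motif of one of the 3 factors best known at such genes. Motifs were searched on both strands. The ETS motif bound by GABPA (CCGGAAGT) was in 12 of 69 promoters (17.4%), against 8.35% of promoters of all genes tested. Its shorter form CCGGAAG, which lies inside it, was in 37.7% against 18.6%. The YY1 motif (AAGATGGC) was in 17.4% against 4.89%, the core of the NRF1 motif (GCATGCGC) in 11.6% against 5.61%, and the ERRA motif (TNAAGGTCA) in 0 of 69 against 0.915%. A match describes letters only and does not show that the factor binds there.

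The 3 genes with the highest fold changes, Mrpl52 (chr14:54426899-54426928, plus strand), Mrpl33 (chr5:31613937-31613966, plus strand) and Mrps18c (chr5:100798591-100798620, plus strand), each hold the ETS motif. Their windows are shown for that reason, with the motif or its reverse complement in capitals. They were thus picked by fold change. Of the 12 genes with this motif, Mrps22 (-0.29), Mrps27 (-0.15) and Mrpl48 (-0.03) lay below 0 and the others above. The Mrpl33 window also holds the reverse complement of the NRF1 core, left in lower case. Mrpl32 (chr13:14613041-14613070, minus strand) is shown for the NRF1 core, which its promoter holds more than once. Mrpl37 (chr4:107066822-107066851, minus strand), Mrpl42 (chr10:95501904-95501933, minus strand) and Mrps7 (chr11:115604147-115604176, plus strand) show the YY1 motif just downstream of the start, in genes with low and high fold changes alike.
Mrpl52: gggccacgcccACTTCCGGttcccttgctc
Mrpl33: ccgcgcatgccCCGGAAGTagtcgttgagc
Mrps18c: cgggtcacgtgACTTCCGGcccgggaagcg
Mrpl32: gcggacttaacGCATGCGCtcagcccgcgt
Mrpl37: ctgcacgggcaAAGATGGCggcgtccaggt
Mrpl42: cagattgaagcAAGATGGCgagcgcgcggt
Mrps7: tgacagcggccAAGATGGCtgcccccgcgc

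Medians with and without a motif lay apart in either direction, and no difference was tested. The median log2 fold change was 0.23 for the 12 genes with the ETS motif and 0.16 for the 57 without, and 0.31 for the 26 genes with its short form against 0.14 for the 43 without. For YY1 it was 0.15 against 0.18, and for the NRF1 core 0.06 (8 genes) against 0.18. The 3 genes with a longer NRF1 form (the core preceded by GC) had a median of -0.21, against 0.18 for the 66 without. The factors themselves did not pass: Gabpa was at -0.33 ± 0.18, Nrf1 at -0.23 ± 0.20 and Yy1 at 0.00 ± 0.13. Ppargc1a, the coactivator of mitochondrial gene programmes, was at 93.0, 182 and 108 CPM in the glycerol mice and 81.3, 81.5 and 24.6 CPM in glycerol+melatonin (-1.03 ± 0.44, edgeR adjusted p = 0.251). Its groups did not overlap, and the lowest mouse was again glycerol+melatonin replicate 3.

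Other lists of the mitochondrial translation pathway had medians from -0.21 to 0.34, and differences between lists were not tested. No gene of them passed by edgeR (background 0.0738%). DESeq2 called 1 translation factor, 1 synthetase and 1 gene of transcription and RNA stability, where it called 4.62% of all genes. At an unadjusted p under 0.05 by edgeR the background for these lists was 19.5%. Of the 5 ribosomal proteins without an Mrp symbol, 4 lay above 0 (median 0.34) and 3 (60.0%) had an unadjusted p under 0.05. They include Gadd45gip1, at 76.9, 69.0 and 81.9 CPM against 110, 90.1 and 97.6 CPM (0.39 ± 0.15), and Ptcd3, the exception, at 71.4, 54.8 and 51.9 CPM against 48.6, 40.7 and 39.7 CPM (-0.46 ± 0.17). Genes of ribosome assembly and rRNA processing were evenly divided, with 14 of 27 above 0, a median of 0.02 and 2 (7.41%) at an unadjusted p under 0.05. Within them Mettl15, which methylates the small-subunit rRNA, was lowest at -0.73 ± 0.22.

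Translation factors lay mostly below 0: 3 of 14 above, with a median of -0.17. At an unadjusted p under 0.05 there were 3 (21.4%, background 19.5%). Gfm1, the elongation factor that moves the ribosome along, was at 115, 118 and 99.5 CPM in the glycerol mice and 93.5, 69.5 and 57.6 CPM in glycerol+melatonin (-0.59 ± 0.20). Taco1, the translational activator of cytochrome c oxidase subunit 1, was at 27.8, 30.2 and 26.4 CPM against 12.7, 10.7 and 5.47 CPM (-1.55 ± 0.29, edgeR adjusted p = 0.113). In both the groups did not overlap. Of 22 mitochondrial aminoacyl-tRNA synthetase genes, 8 lay above 0 (median -0.08), with Lars2 lowest at -0.87 ± 0.23. Of these synthetase genes 3 (13.6%, below that background) had an unadjusted p under 0.05. Of 20 genes of mitochondrial transcription and RNA stability 4 lay above 0 (median -0.21) and 4 (20.0%, near the background) had an unadjusted p under 0.05. Slirp, one of the genes above 0, stabilises mitochondrial mRNAs and was at 8.03, 12.0 and 13.6 CPM against 30.1, 23.7 and 39.3 CPM (1.47 ± 0.26, edgeR adjusted p = 0.0985).

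The RNAs that the ribosome contains and reads were also listed. The ribosomal RNAs mt-Rnr1 (0.02 ± 0.29) and mt-Rnr2 (0.11 ± 0.26) overlapped between groups. All 7 mitochondrially encoded mRNAs measured lay below 0 (median -0.63). By edgeR 0 passed and 2 had an unadjusted p under 0.05 (28.6%, background 19.5%). DESeq2 called 2 (background 4.62%), and in 1 of the 7, mt-Nd4l, the groups did not overlap (background 26%). Their mean centred levels were 0.90, 0.58 and -0.34 in the control mice and -0.17, -0.79 and -0.17 in the melatonin mice, so glycerol replicate 3 lay among the melatonin mice.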

How the data were processed

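RNA-seq counts were analysed for 6 mice (2 groups of 3), grouped by the labelled treatment. The authors deposited 1 table of whole-number read counts per gene, filtered on low counts (smallest total over the libraries 28). Per the submitters' processing notes the build was mm10; the tools they name, without roles, are HISAT2 2.0, StringTie 1.3.3b, DESeq2 1.12.4, FastQC 0.11.2, Trimmomatic 0.36 and bedtools 2.26.0. The sources used here do not say which of them counted, on which annotation, or how strand and multiply matching reads were handled. Totals were 39310361 to 48879045 counts, so the spread between mice rather than counting error sets the precision. Replicates are biological per the series' text.

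Symbols, lengths and positions came from GENCODE M21 on GRCm38, the assembly of mm10. edgeR 4.0.16 (R 4.3.3) was fitted to all 16259 genes kept by filterByExpr, with TMM factors and no covariate, and p-values were adjusted by Benjamini-Hochberg over all of them. CPM are TMM-scaled. Log levels per mouse used a prior count of 2. The standard error is the fold change divided by the root of F. Length offsets were splines with 4 degrees of freedom on log counts, fitted per library. Scripts were tested on simulated counts. Alternatives were DESeq2 1.42.0, limma-voom 3.58.1, other scalings and filters, a replicate block, offsets for length and GC content, subunits by place, leaving out members that share exon bases, and leaving out each mouse. Sums with overlapping genes and the coding length offset were added after the data were seen.

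The genes and all lists were chosen with earlier results of these data known. Genes were named if they had the 6 highest or lowest fold changes, the 6 smallest p or the 4 highest or lowest levels per kilobase. Genes with a second role, a paralog or an unusual place, or that moved when summed with overlapping genes, were named too. Most of them are given in every mouse, and the others by a mean, a range or an estimate alone. Divergent neighbours and genes of other lists were picked partly after their values were seen.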

Additional observations from a re-analysis of the deposited data

How the results depend on the processing

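Of the 78 genes, 0 passed by edgeR in any setting run, and the median of the set was above 0 in each of them. DESeq2 called 1 gene, Mrpl52 (0.66), and 752 genes in all; limma-voom called 0 of the set. Scaling by library size alone moved all genes up: the medians were 0.36 for the set, 0.35 for Mrpl and 0.38 for Mrps genes, 32 genes had an unadjusted p under 0.05 (20.3% of all genes tested) and 40 did not overlap (24.9% of all). With transcript length corrected 7 genes passed in all and large minus small was -0.10, with length and GC content corrected 6 genes passed and it was -0.16, and with coding length corrected it was -0.00259 and 8 genes of the set had an unadjusted p under 0.05 (18.1% of all). By place in the ribosome large minus small was -0.065. Among the 45 genes that share no exon bases, a smaller set by construction, 29 lay above 0 (64.4%, background 51.7%). Of these 45, 14 did not overlap (31.1%, background 26%). Same-numbered mice did not deviate together over all genes tested (correlations -0.01, -0.01 and -0.05). Over the set the correlations were 0.26, -0.06 and -0.31. Deviations were centred in groups of 3, so these values cannot show whether the replicate numbers are pairs. With a replicate block 0 genes passed in all and 14 of the set had an unadjusted p under 0.05 (18.4% of all genes tested).

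Leaving out each mouse gave 6 to 27 genes passing in all and, for the set, 5 to 30 at an unadjusted p under 0.05, 49 to 61 above 0, 25 to 39 without overlap, and medians of 0.07 to 0.28 (Mrpl 0.04 to 0.27, Mrps 0.12 to 0.31). Over all genes tested the unadjusted share was 10.4% to 22.9% and that without overlap 31.4% to 44.5%; groups of 2 against 3 fail to overlap more readily than 3 against 3. Large minus small ran from -0.083 to -0.0063. The cause of these shifts was not tested.

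Some named genes changed sign. With transcript length corrected the values were -0.16 for Mrpl12, -0.17 for Mrpl14, 0.18 for Mrpl17, 0.072 for Mrpl48, -0.13 for Mrps18b, -0.0154 for Mrps21 and -0.31 for Mrps36. With GC content added they were -0.19 for Mrpl12, -0.26 for Mrpl14, 0.22 for Mrpl17, 0.0112 for Mrpl19, 0.11 for Mrpl48, -0.12 for Mrps18b, -0.0198 for Mrps21 and -0.26 for Mrps36. With coding length corrected they were -0.074 for Mrpl12, -0.022 for Mrpl14, -0.092 for Mrps17 and -0.29 for Mrps36. By library size alone Mrpl17 was at 0.21, Mrpl19 at 0.057, Mrpl48 at 0.15 and Mrpl49 at 0.10. Summed with overlapping genes Mrpl14 was at -0.28, Mrpl48 at 0.16 and Mrps24 at -0.024. Mrpl17 was at 0.00945 with a filter of 1 CPM, 0.00587 by limma-voom, 0.00614 with the replicate block and 0.032 with upper quartile factors, and Mrps36 at -0.0052 by limma-voom and -0.00636 with the replicate block. Leaving out single mice gave ranges of -0.13 to 0.15 for Mrpl12, -0.093 to 0.099 for Mrpl17, -0.22 to 0.073 for Mrpl48, -0.20 to 0.051 for Mrpl49 and -0.18 to 0.17 for Mrps36.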
